A study of Mus musculus with 8 samples.

Results

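A set of 6 genes was followed here across 8 mice, namely the dorsal markers Nqo1 and Acsm4, the ventral marker Ncam2, and the nuclear factor I (NFI) genes Nfia, Nfib and Nfix. Each was represented by the transcript cluster, the array's unit of expression, whose platform annotation named that gene and no other, and where there were several the cluster with the highest mean signal over the 8 arrays was taken. These 6 genes stand among 19938 genes with a cluster of their own. The signals were log2 values from Affymetrix Mouse Gene ST arrays hybridised with total RNA of the olfactory mucosa at postnatal day 1. Knockout mice were OmpCre:Emx2 fl/fl (n = 4). The 4 controls were littermates of 2 genotypes, OmpCre:Emx2 fl/+ in controls 1, 2 and 3 but Emx2 fl/fl with no Cre in control 4. All 8 mice were on a mixed 129 x C57BL/6J background, and each carried at least 1 floxed copy of Emx2. Cre was inserted at Omp, a gene of mature olfactory sensory neurons (OSNs), so deletion begins late in the lineage, and controls 1 to 3 could lose 1 copy of Emx2 in the same cells. The labels do not name sex or litter, and the methods of the study state that both sexes were used.

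The olfactory epithelium is divided into zones along the dorsal to ventral axis, and each zone expresses its own part of the odorant receptor repertoire. Nqo1, an NADPH quinone oxidoreductase, and Acsm4, a medium-chain acyl-CoA synthetase, mark OSNs of the dorsal zone, whereas Ncam2 (also called OCAM), a neural cell adhesion molecule, marks OSN axons and cells of the ventral zones. NFI proteins are transcription factors that bind DNA as dimers at sites containing TTGGC, and they act in neural stem cells, glia, muscle, cartilage and other connective tissue as well as in the OSN lineage. Emx2 is a homeodomain factor, a class that recognises sites with the core TAATTA.

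The targeted gene was checked first. Emx2 measured 10.25, 10.14, 10.34 and 10.14 in knockouts 1 to 4 and 10.83, 10.74, 10.58 and 10.89 in controls 1 to 4. The groups did not overlap. The difference was -0.55 ± 0.08 (SE) on the log2 scale, 0.684-fold, with exact permutation p = 0.0286, the smallest the design allows, and limma adjusted p = 0.201. Array medians lay between 8.64 and 8.68 and correlations between arrays between 0.985 and 0.996. Control 2 stood apart, at 32.9 on a first principal component that held 32.5% of the variance, with the others at -11.8 to 6.11, and its mean over 9 myeloid genes was 0.86 above the mean of the 8 mice. Omp was clear of the array median in every mouse, at 12.60 to 12.91 in knockouts and 12.56 to 13.43 in controls. So was Gap43 of immature OSNs, which averaged 11.56 in knockouts and 11.67 in controls. Omp is also the locus of the Cre insertion, which control 4 (Omp at 13.29) lacked and control 1 (13.43) carried. The effect of the insertion on the Omp signal was not tested. Y-linked signal was high in knockout 3 and in controls 2, 3 and 4, so it ran with the groups in part. Xist was at 7.00 in knockout 3 and at 8.08 in control 2, whereas controls 3 and 4, at 10.30 and 10.35, carried Xist and Y-linked signal together.

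No member gene passed. Over 21789 clusters with exactly 1 gene, limma called 0% at an adjusted p below 0.05, and 0 of the 6 members. At an unadjusted p below 0.05, 2.62% of clusters were higher in knockouts and 2.55% lower, and again 0 of 6 members were among them. The groups did not overlap with knockouts higher in 1.62% of clusters and with knockouts lower in 1.48%, and 0 of 6 members were among these either. The adjusted count was 1 without control 3. At the unadjusted level, 936 clusters were higher without control 1, against 571 with all mice, and 352 were lower without knockout 4, against 555. The intervals below give the sizes of change that the 8 mice leave possible.

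**Figure D1:**
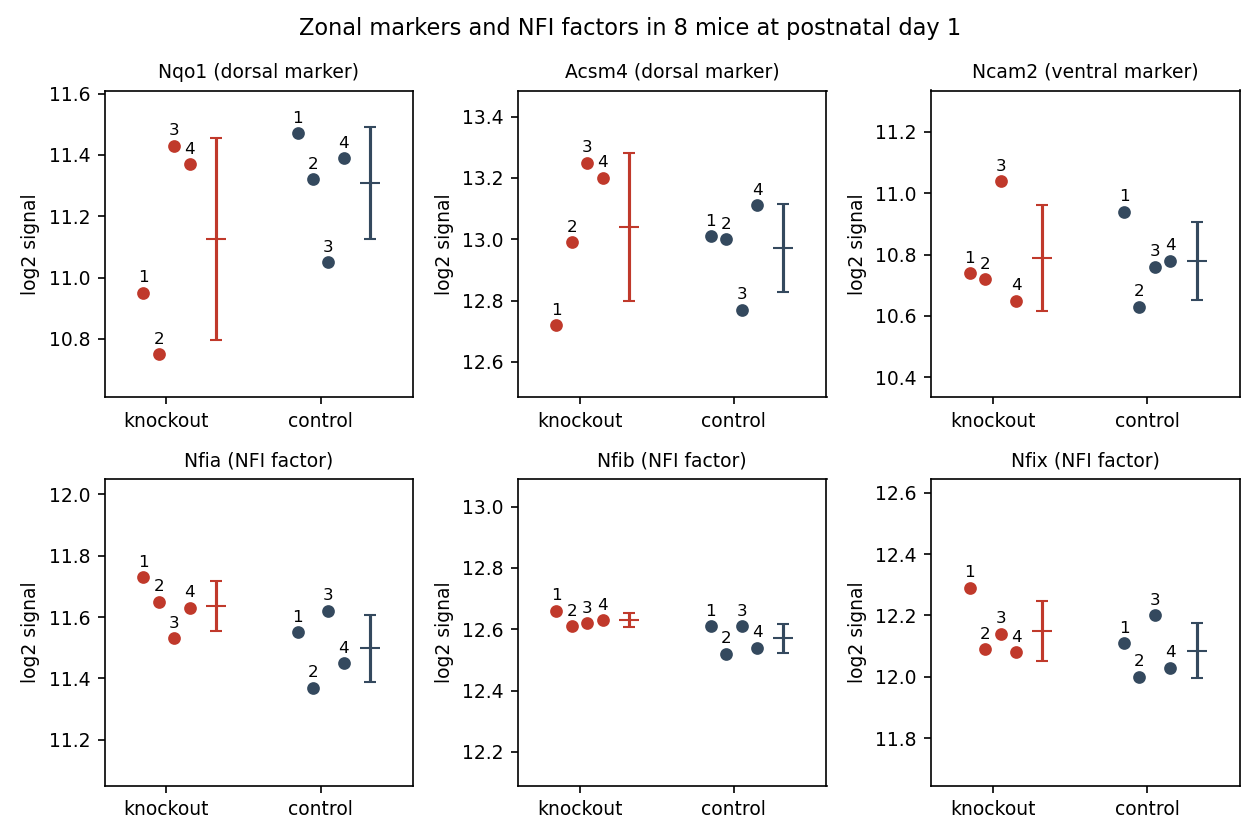
Log2 signal of the 6 genes in each mouse, knockouts left and controls right, with the mouse number above each point and the mean and SD beside each group (n = 4 each). Every panel spans 1 log2 unit, so spreads can be compared between panels, and the groups overlap in all 6.

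Nqo1 measured 10.95, 10.75, 11.43 and 11.37 in knockouts 1 to 4, against 11.47, 11.32, 11.05 and 11.39 in controls 1 to 4. Knockouts 1 and 2 were below every control, but knockouts 3 and 4 lay near the top of the control range. The means were 11.12 ± 0.33 in knockouts and 11.31 ± 0.18 in controls (SD, n = 4 each). The difference was -0.18 ± 0.16 (SE), 0.881-fold, with a 95% interval of 0.684-fold to 1.13-fold. It was smaller than the spread between mice (limma adjusted p = 0.911, exact permutation p = 0.343). Over all mice Nqo1 ranged 1.65-fold, and its residual SD of 0.27 was larger than that of 96.4% of clusters at or above the median signal.

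Acsm4 measured 12.72, 12.99, 13.25 and 13.20 in knockouts 1 to 4, against 13.01, 13.00, 12.77 and 13.11 in controls 1 to 4. The lowest and the highest mice were both knockouts. Group means were 13.04 ± 0.24 in knockouts and 12.97 ± 0.14 in controls (SD, n = 4 each). The difference of 0.07 ± 0.12 (SE), 1.05-fold with a 95% interval of 0.865-fold to 1.27-fold, did not pass (limma adjusted p = 0.953, exact permutation p = 0.629). Its sign rested on single mice, since it was -0.0029 without knockout 3 and -0.00017 without control 3. Both dorsal markers were low in knockout 1 and in control 3 and high in knockouts 3 and 4. They parted in knockout 2, where Nqo1 was lowest, and in control 1, where Nqo1 was highest. Acsm4 was in the middle of its range in both, at 12.99 and 13.01. The deviations of Nqo1 and Acsm4 from the group means correlated at r = 0.789 over the 8 mice, and at 0.789 without control 2. Such correlations describe arrays that share dissection, RNA composition and scale within each mouse.

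Ncam2 measured 10.74, 10.72, 11.04 and 10.65 in knockouts 1 to 4, against 10.94, 10.63, 10.76 and 10.78 in controls 1 to 4. Knockout 3 and control 1 were the high mice, and the other 6 lay within a narrow band shared by both groups. The means were 10.78 ± 0.17 in knockouts and 10.78 ± 0.13 in controls (SD, n = 4 each). The difference of 0.0085 ± 0.095 (SE) had a 95% interval of 0.865-fold to 1.17-fold (limma adjusted p = 0.995, exact permutation p = 0.971). It was -0.08 without knockout 3 and -0.04 without control 2, and it was also below 0 after quantile normalization and with array weights. A gene this close to 0 has no settled direction. Ncam2 deviated with Nqo1 at r = 0.443 and with Acsm4 at r = 0.315 over the 8 mice, so the ventral marker did not run opposite to the dorsal ones.

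The promoter windows of the zonal markers are shown because the dorsal pair varied together across mice and because TTGGC is the NFI half-site. Each window runs from 250 bases before to 50 bases after the RefSeq start, is written 5′ to 3′ on the strand of the gene (build GRCm38.p6), and has matches to TTGGC or TAATTA in capitals. Both motifs were searched on both strands, so a match on the other strand reads GCCAA, and no match of one overlapped a match of the other. RefSeq windows were matched for 5 of the 6 genes, all but Nfib.
Nqo1 (chr8:107403156-107403455, minus strand): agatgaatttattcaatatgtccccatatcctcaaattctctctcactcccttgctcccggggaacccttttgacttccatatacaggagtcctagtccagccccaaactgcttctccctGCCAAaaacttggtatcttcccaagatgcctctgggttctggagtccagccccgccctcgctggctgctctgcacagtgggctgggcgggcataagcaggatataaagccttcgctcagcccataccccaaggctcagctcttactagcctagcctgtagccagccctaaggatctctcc
Acsm4 (chr7:119689776-119690075, plus strand): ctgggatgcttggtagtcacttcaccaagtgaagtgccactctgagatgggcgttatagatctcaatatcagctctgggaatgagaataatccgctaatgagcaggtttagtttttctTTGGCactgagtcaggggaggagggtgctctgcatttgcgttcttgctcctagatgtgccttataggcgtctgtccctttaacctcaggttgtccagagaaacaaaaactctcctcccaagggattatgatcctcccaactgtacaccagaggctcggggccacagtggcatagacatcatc
Ncam2 (chr16:81200447-81200746, plus strand): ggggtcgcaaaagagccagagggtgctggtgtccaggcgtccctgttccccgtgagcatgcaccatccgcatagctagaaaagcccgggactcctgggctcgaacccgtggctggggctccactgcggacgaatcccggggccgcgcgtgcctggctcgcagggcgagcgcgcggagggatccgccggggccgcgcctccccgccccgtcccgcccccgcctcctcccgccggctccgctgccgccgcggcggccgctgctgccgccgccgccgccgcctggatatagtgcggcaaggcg
The Nqo1 window held 1 TTGGC match, beginning at -130 from the start, and the Acsm4 window 1, beginning at -132. The Ncam2 window held no match to TTGGC, and none of the 3 held TAATTA. Among 32851 RefSeq windows of this length, 46.7% held TTGGC and 5.29% held TAATTA. A match of 5 letters this common describes the sequence only.

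The zonal balance was taken within each mouse as the mean of Nqo1 and Acsm4 minus Ncam2, a difference of log2 signals whose level has no meaning between probes but whose change between mice does. It was 1.10, 1.15, 1.30 and 1.64 in knockouts 1 to 4, against 1.30, 1.53, 1.15 and 1.47 in controls 1 to 4. The lowest and the highest values were both in knockouts, and the control values lay between them. Group means were 1.30 ± 0.24 in knockouts and 1.36 ± 0.17 in controls (SD, n = 4 each), a difference of -0.07 ± 0.15 (SE) for which no test was made. With Nqo1 as the only dorsal marker the difference was -0.19, and with Acsm4 as the only one it was 0.06. Leaving out 1 mouse at a time gave -0.18 to -0.00051.

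Receptors of the same zones were set beside these markers. Of 5 listed dorsal receptors 4 were measured, and all 4 had lower means in knockouts with a median of -0.06, none past the adjusted or the unadjusted threshold. Without control 2 they split 2 higher and 2 lower, and 3 of them (Olfr151, Olfr16 and Olfr615) were dimmer than every array median. The smallest p was that of Olfr16, at -0.21 ± 0.14 (SE). Of 5 ventral receptors 4 were lower and 1 higher, with a median of -0.18. Olfr1507 (MOR28), at -0.75 ± 0.26 (SE), and Olfr156, at -0.20 ± 0.07 (SE), were past the unadjusted level but not the adjusted one (limma adjusted p = 0.910 and 0.876), while Olfr15 was at 0.20 ± 0.09 (SE). For Olfr15 the study reports, by in situ hybridization, expression spreading into the dorsal zone in the conditional Emx2 deletion strains it tested. Its signal here can therefore include dorsal cells. Over all clusters 2.55% were past the unadjusted level downwards. Olfr156 and Olfr308 were dimmer than every array median. Genes of mature OSNs, Omp included at -0.27 ± 0.19 (SE), lay the same way, with 16 of 24 lower and a median of -0.04. Of these, 4 were past the unadjusted level downwards and 1 upwards, against 2.55% and 2.62% of all clusters. S100a5, a calcium-binding protein of OSNs, was at -0.58 ± 0.12 (SE) with every knockout below every control (limma adjusted p = 0.459). Cartpt, of the same list, was at 0.48 ± 0.12 (SE) with every knockout above every control (limma adjusted p = 0.673). Groups were apart in this way in 1.48% of all clusters downwards and in 1.62% upwards. The study reports no change in the number of mature or immature OSNs after conditional deletion of Emx2. The part of the mature OSN content in the receptor differences was not tested. Of all 21789 clusters 51.4% were higher in knockouts, with a median of 0.0024. In bulk tissue, fewer cells of a type and less RNA per cell cannot be told apart.

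The zonal balance and the mean of the dorsal receptors were low and high in many of the same mice. Knockout 4, control 2 and control 4 had the 3 highest values of both, and the deviations from the group means correlated at r = 0.843 over the 8 mice (0.815 without control 2). With Olfr545 alone, the single dorsal receptor brighter than the array medians, r was 0.376. Robo2 and Sema3f, the other genes of the dorsal zone list, ran the other way, and their mean deviated with Nqo1 at r = -0.532, with Acsm4 at -0.761 and with the balance at -0.392. The balance also ran against the cartilage and bone genes, at r = -0.880 (-0.928 without control 2). With the mature OSN list Nqo1 deviated at r = 0.689, Acsm4 at 0.784 and the ventral marker Ncam2 at 0.682. The balance did so at 0.316. With the trace amine-associated receptors, chemoreceptors of OSNs, Nqo1 deviated at 0.701, Acsm4 at 0.838 and Ncam2 at 0.222. Of 12 measured trace amine-associated receptors, 10 were higher and 2 lower in knockouts with a median of 0.12. Without controls 3 and 4 they were 7 higher and 5 lower with a median of 0.0040. Of the 12, 6 were dimmer than every array median, Taar8b (4.80 in knockouts, 4.83 in controls) and Taar8c (4.62 in knockouts, 4.55 in controls) the dimmest. Over the other 6, all higher, r was 0.622 with Nqo1 and 0.809 with Acsm4. None passed, and Taar5, at 0.21 ± 0.12 (SE), had the smallest p.

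**Figure D2:**
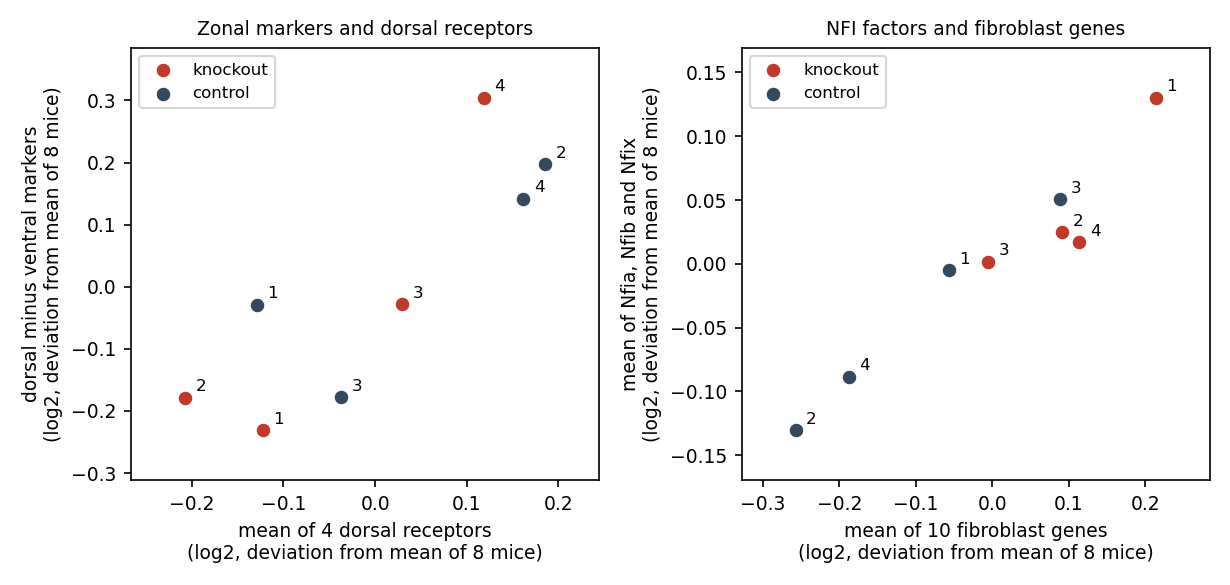
Left, dorsal minus ventral markers against the mean of 4 dorsal receptors, 3 of them dimmer than every array median, and right, the mean of Nfia, Nfib and Nfix against the mean of 10 fibroblast genes, each as the deviation in log2 signal from the mean of the 8 mice (knockouts red, controls dark, mouse number beside each point). On the right the mice fall close to a line, with knockout 1 at the top and control 2 at the bottom.

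Other genes with zonal expression in OSNs gave no common direction. Of the 4 dorsal zone genes, Nqo1 and Acsm4 included, 2 were higher and 2 lower in knockouts with a median of 0.02. Robo2, an axon guidance receptor high in dorsal OSNs, was at 0.12 ± 0.05 (SE) with groups that did not overlap, and Sema3f, a repulsive guidance ligand made by dorsal OSNs, was at -0.03 ± 0.05 (SE). Of the 3 ventral zone genes, Nrp2, the receptor for Sema3f, was at 0.07 ± 0.08 (SE). Slit1, a ligand of Robo2, was at -0.30 ± 0.07 (SE), with every knockout below every control. Robo2 and Slit1 were past the unadjusted level only (limma adjusted p = 0.910 and 0.593). Over all clusters 2.62% were past that level upwards and 2.55% downwards, and groups did not overlap in 1.62% and 1.48%. Ncam2 lay between Nrp2 and Slit1.

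The families and pathways of the 3 markers were also read. Nqo1 is a target of Nrf2 (Nfe2l2), the oxidative stress factor held back by Keap1. Of 14 measured genes of that pathway, 6 were higher and 8 lower with a median of -0.01. Nfe2l2 itself was at 0.00082 ± 0.058 (SE) and Keap1 at -0.04 ± 0.04 (SE). Srxn1, which reduces oxidised peroxiredoxins, was at -0.11 ± 0.04 (SE) with groups that did not overlap and was the only one of them past the unadjusted level (limma adjusted p = 0.910). Downwards, 2.55% of all clusters were past that level, and in 1.48% the groups did not overlap. Quinone and carbonyl reductases split 4 higher and 4 lower with a median of -0.01, and the smallest p was that of the carbonyl reductase Cbr2, at -0.08 ± 0.05 (SE). The 5 acyl-CoA synthetases of the Acsm family were 2 higher and 3 lower, with Acsm3 at 0.28 ± 0.25 (SE). Of 14 adhesion molecules of the NCAM, L1, contactin and Kirrel families 9 were higher and 5 lower with a median of 0.01. Ncam1, the nearest relative of Ncam2, was at -0.01 ± 0.05 (SE). Kirrel2, whose level in OSN axons follows neuronal activity, was at -0.33 ± 0.09 (SE) and the contactin Cntn4 at -0.13 ± 0.05 (SE). Both were past the unadjusted level only (limma adjusted p = 0.739 and 0.910), which 2.55% of all clusters reached downwards.

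All 3 NFI factors had a higher mean in knockouts, and none passed the test. Nfia measured 11.73, 11.65, 11.53 and 11.63 in knockouts 1 to 4, against 11.55, 11.37, 11.62 and 11.45 in controls 1 to 4. Of the knockouts, 3 were above the highest control, and knockout 3 was below controls 1 and 3. Means were 11.64 ± 0.08 in knockouts and 11.50 ± 0.11 in controls (SD, n = 4 each). The difference of 0.14 ± 0.07 (SE) was 1.10-fold with a 95% interval of 0.989-fold to 1.22-fold (limma adjusted p = 0.910, exact permutation p = 0.114). A second cluster of Nfia gave 0.10 ± 0.08 (SE), with exact permutation p = 0.314.

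Nfib measured 12.66, 12.61, 12.62 and 12.63 in knockouts 1 to 4, against 12.61, 12.52, 12.61 and 12.54 in controls 1 to 4. Knockouts 1, 3 and 4 were above the highest control, and knockout 2 lay level with controls 1 and 3. Its means were 12.63 ± 0.02 in knockouts and 12.57 ± 0.05 in controls (SD, n = 4 each). The difference was 0.06 ± 0.04 (SE), 1.04-fold, and did not pass (limma adjusted p = 0.910, exact permutation p = 0.0571). A second cluster gave 0.07 ± 0.04 (SE), again with exact permutation p = 0.0571. Nfib was among the steadiest genes between mice of a group, with a residual SD above that of only 6.45% of clusters at or above the median signal.

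Nfix measured 12.29, 12.09, 12.14 and 12.08 in knockouts 1 to 4, against 12.11, 12.00, 12.20 and 12.03 in controls 1 to 4. Knockout 1 stood above all other mice, and the remaining knockouts lay inside the control range. The means of 12.15 ± 0.09 in knockouts and 12.08 ± 0.09 in controls (SD, n = 4 each) differed by 0.07 ± 0.06 (SE), 1.05-fold (limma adjusted p = 0.918, exact permutation p = 0.371). Without knockout 1 the difference was 0.02. Nfic, the fourth gene of the family, was at 0.05 ± 0.06 (SE), with limma adjusted p = 0.926.

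**Figure D3:**
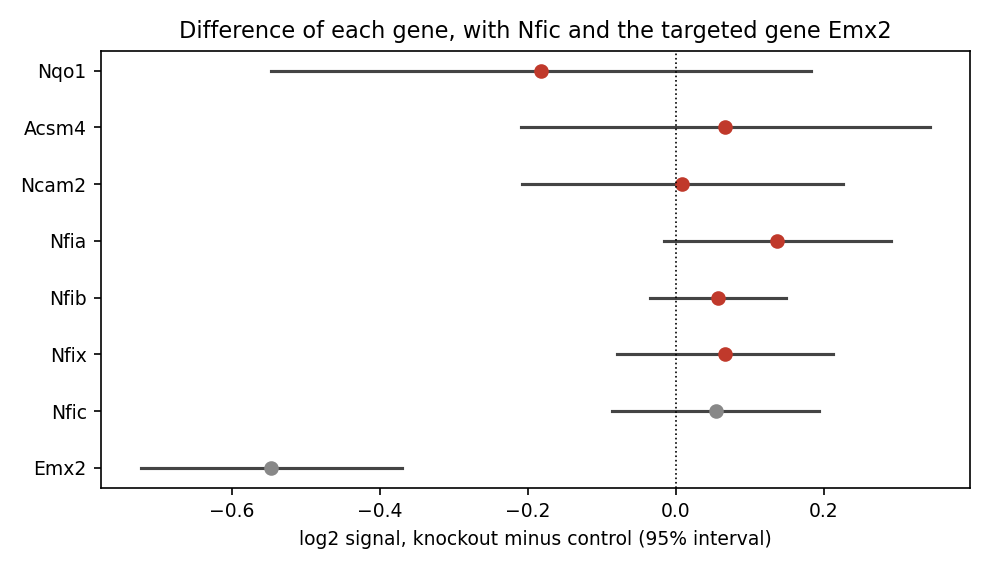
Difference in log2 signal, knockout minus control, of each gene with its 95% interval (limma), with Nfic and the targeted gene Emx2 in grey (4 mice a group). The intervals of all 6 genes and of Nfic include 0, whereas that of Emx2 does not.

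The Nfix start windows were scanned for the same motifs. RefSeq gave 4 windows for Nfix, and the first is shown because it was the only one of the 8 windows of these genes that held the homeodomain core TAATTA, beginning at -40 from the start.
Nfix (chr8:84780033-84780332, minus strand): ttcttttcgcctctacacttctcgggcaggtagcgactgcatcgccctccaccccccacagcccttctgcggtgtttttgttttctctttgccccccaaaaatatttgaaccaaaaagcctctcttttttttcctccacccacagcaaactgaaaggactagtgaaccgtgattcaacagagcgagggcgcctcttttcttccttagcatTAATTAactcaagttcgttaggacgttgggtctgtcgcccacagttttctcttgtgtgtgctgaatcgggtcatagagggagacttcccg
Windows 2, 3 and 4 of Nfix held TTGGC and the first did not. The single window of Nfia (chr4:97581693-97581992, plus strand) held neither motif. Among all RefSeq windows of this length 5.29% held TAATTA and 46.7% held TTGGC. The matches to both motifs describe the sequence only.

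The mean of Nfia, Nfib and Nfix in each mouse was 12.22, 12.12, 12.10 and 12.11 in knockouts 1 to 4, against 12.09, 11.96, 12.14 and 12.01 in controls 1 to 4. Control 3 was above 3 of the knockouts, so the groups overlapped. The groups differed by 0.09 ± 0.05 (SE), 1.06-fold, with no test made. The 3 genes deviated together: r was 0.887 for Nfia with Nfib, 0.805 for Nfia with Nfix and 0.846 for Nfib with Nfix over the 8 mice, and 0.811, 0.762 and 0.832 without control 2. Against the dorsal marker Acsm4 the signs were opposite, at -0.752 for Nfia and -0.792 for Nfix.

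**Figure D4:**
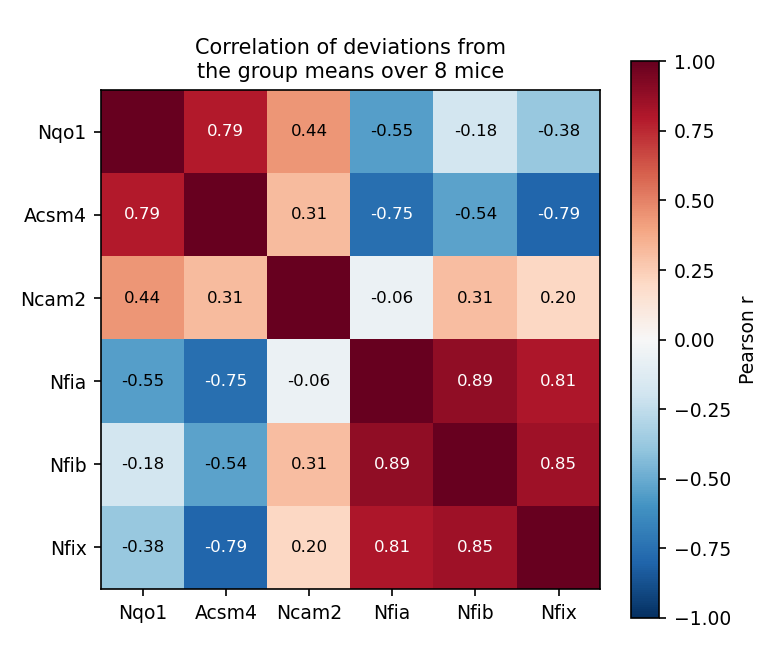
Pearson r between the 6 genes of their deviations from the group means in log2 signal over 8 mice (red positive, blue negative). The 3 NFI factors form 1 positive block (0.81 to 0.89), Nqo1 and Acsm4 are positive with each other (0.79), and Acsm4 is negative with Nfia and Nfix.

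Markers of connective tissue moved with the NFI factors. All 10 of 10 fibroblast genes had higher means in knockouts, with a median of 0.20, against 51.4% of all clusters. They also did so without control 2 (median 0.16). Past the unadjusted level in this direction, which 2.62% of all clusters reached, were 3 of them, the collagen Col3a1 at 0.21 ± 0.08 (SE), the proteoglycan Lum at 0.32 ± 0.12 (SE) and the matrix protein Postn at 0.36 ± 0.11 (SE). None passed after adjustment. The mean of the fibroblast list, as a deviation from all mice, ran between -0.0053 and 0.21 in knockouts and between -0.26 and 0.09 in controls. The dimmest gene of the list, Twist1, averaged 9.24 in knockouts and 9.14 in controls, above every array median. All 10 measured cartilage and bone genes also had higher means, with a median of 0.22, and their list mean ran between -0.11 and 0.30 in knockouts and between -0.41 and 0.16 in controls. Of these genes Matn1, Comp and Dmp1 were dimmer than every array median over the 8 mice, and without control 2 there were 9 higher and 1 lower. The NFI mean deviated with the fibroblast list at r = 0.958 (0.937 without control 2), with cartilage and bone at 0.874, with the mature OSN list at -0.502 and with the trace amine-associated receptors at -0.896. The part of the connective tissue content of a dissection in the NFI differences was not tested.

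Genes of globose basal cells had the same direction, whereas most of those of horizontal basal cells did not. All 10 measured genes of globose basal cells, the dividing progenitors of OSNs, had higher means in knockouts, with a median of 0.12 against 0.0024 over all clusters. The receptor tyrosine kinase Kit, at 0.17 ± 0.07 (SE), was the one past the unadjusted level, which 2.62% of all clusters reached upwards. None passed after adjustment (limma adjusted p = 0.910 for Kit). The list mean ran between -0.01 and 0.21 in knockouts and between -0.30 and 0.05 in controls, with control 2 lowest, and without control 2 there were 8 higher and 2 lower with a median of 0.06. The NFI mean deviated with this list at r = 0.295 over the 8 mice and at -0.351 without control 2. The part of globose basal cells in the NFI differences was not tested. Of 6 measured genes of horizontal basal cells, 2 were higher and 4 lower in knockouts, with a median of -0.11. None of them was past the unadjusted level.

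Genes regulated by NFI in glia were split with all mice. Of 5 such genes 3 were higher and 2 lower with a median of 0.03. Zcchc24 had the smallest p at 0.11 ± 0.09 (SE). The list was 4 higher and 1 lower without control 2 (median 0.01) and without controls 3 and 4 (median 0.10). Gfap, at -0.04 ± 0.09 (SE), was dimmer than every array median. Ensheathing glia genes were 5 higher and 3 lower of 8 measured, with a median of 0.03. Without control 2 the ensheathing glia genes were 7 higher and 1 lower, and without controls 3 and 4 they were 4 and 4.

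Y-linked signal gave 2 sets of mice, with knockout 3 and controls 2 to 4 high and knockouts 1, 2 and 4 and control 1 low. Within the high set Nqo1 differed by 0.18, Acsm4 by 0.29 and Ncam2 by 0.31, and within the low set by -0.45, -0.04 and -0.24. The signs of all 3 zonal markers thus turned between the sets. The zonal balance kept its sign, at -0.08 in the high set and -0.0062 in the low set. Nfia differed by 0.05 and 0.12, Nfib by 0.06 and 0.02 and Nfix by 0.06 and 0.05 in the high and the low set, without a change of sign. Each set held a single mouse of 1 group, so neither allowed a test.

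Genes most like each member were sought among 9803 genes with a cluster at or above the median signal, by Pearson r of deviations from the group means over the 8 mice. For Nqo1 these were Spcs1 (r = 0.982), Thumpd3 (0.979) and Zmat2 (0.967), and for Acsm4 they were Cpeb1 (0.998), Fbxo22 (0.993) and Efcab10 (0.973). For Ncam2 they were Zfp644 (0.975), Angel1 (0.969) and the odorant receptor Olfr1348 (0.960). None of the zonal genes listed above was among these 9. For the NFI factors, fibroblast markers appeared: Nfia had Myo9a (0.971), Postn (0.958) and Mlec (0.953), and Nfib had Lum (0.963), Gadd45gip1 (0.963) and Stx17 (0.959). Nfix had 2610301B20Rik (0.980), Cbfb (0.964) and Snhg17 (0.961). The lowest of these 18 values was 0.929 without control 2. Values this high are the extremes of many genes over few mice and carry no test.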

How the data were processed

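Total RNA of the olfactory mucosa of 8 mice (4 knockouts, 4 controls) was hybridised by the authors to Affymetrix Mouse Gene ST arrays. The values they deposited were log2 signals, 1 per transcript cluster and mouse. Affymetrix Expression Console stands in the submitters' processing notes with no version. How it summarised and scaled the probes was not given in the sources used here. A scaling that equalises array medians hides a change shared by most genes. Precision is limited by the number of arrays. Of 35557 clusters, 21789 carried exactly 1 gene symbol in the platform annotation, 1621 carried several and 12147 were unnamed.

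The 2 groups were fitted in R 4.3.3 with limma 3.58.1 (lmFit, then eBayes, two-sided), and p-values were adjusted by Benjamini-Hochberg over all 21789 clusters at a threshold of 0.05. Single genes were also compared by two-sided exact permutation over 70 assignments (SciPy 1.17.1). Scores over several of the 6 genes received no p. Mice were numbered in accession order, so the numbers pair no samples, and where mice shared a litter the p-values take no account of it. The fit was tested on simulated data for this comparison with 200 of 21789 clusters changed, in 5 runs a size, and recovered 70.3% of clusters at a log2 change of 0.5 and 94.4% at 1. Those rates belong to that many changed clusters with independent noise, and the adjusted threshold is stricter where fewer clusters change. In the data 0 clusters passed, and Emx2, at -0.55, had limma adjusted p = 0.201. The rates therefore do not give the sensitivity of this comparison.

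The genes named were the 6 members in full, Nfic, Emx2, the gene of smallest p in each pathway list with any that passed, and for each member the 3 genes of highest r. Further genes of these lists (Sema3f, Nrp2, Olfr1507, Olfr15, Nfe2l2, Keap1, Ncam1, Cntn4, Gap43, S100a5, Cartpt, Kit, the dim receptors and the markers of connective tissue) were named after their values were seen. Correlations with a list used its genes other than the 6. The members and lists were chosen with earlier results of these data known. The alternatives were quantile normalization, scaling to mature OSN genes, a filter on dim clusters, array weights, the methods' t-test, Y-linked signal as a covariate, other clusters of a gene and leaving out each mouse. Leaving out controls 3 and 4 together, gene lists without control 2, and gene lists without genes whose mean lay below every array median (dim genes) were added after seeing the data. Promoter windows were RefSeq sequences of build GRCm38.p6, and no coordinates are given for the array values, whose build is not named.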

Additional observations from a re-analysis of the deposited data

How the results depend on the processing

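Nqo1 stayed below 0 (-0.28 to -0.06 when single mice were left out, and -0.27 to -0.08 under the other alternatives). Nfia (0.09 to 0.18, and 0.07 to 0.20), Nfib (0.04 to 0.07, and 0.04 to 0.12), Nfix (0.02 to 0.10, and 0.04 to 0.13) and the NFI mean (0.06 to 0.12, and 0.05 to 0.15) stayed above 0, and none of these genes passed the limma adjusted threshold under any alternative run. Acsm4 ran from -0.0029 (without knockout 3) to 0.17 when single mice were left out. Ncam2 ran from -0.0751 (without knockout 3) to 0.0631, and was -0.0045 after quantile normalization, -0.0291 with array weights and -0.0014 without controls 3 and 4. The zonal balance ran from -0.18 to -0.00051 when single mice were left out and was 0.0584 with Acsm4 alone as the dorsal marker. The count of clusters called by limma at an adjusted p below 0.05, 0 with all mice, ran from 0 to 1 when single mice were left out (1 without control 3), and was 4 after scaling to mature OSN genes, 2 among clusters above the median signal, 5 with array weights and 1 without controls 3 and 4. Why these values moved was not tested.

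No paired analysis was possible because the labels give no replicate numbers, and those used here follow accession order. The limits are few mice, unnamed litters, controls of 2 genotypes, Y-linked signal that ran with the groups in part, and RNA of the whole mucosa, in which the zones were not separated.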

Other observations

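Ncam2 varied with cell classes that the other 5 genes tracked less closely. Its deviations from the group means correlated over the 8 mice at r = 0.913 with the mean of 8 sustentacular cell genes (0.912 without control 2), at 0.894 with the 5 ventral receptors (0.866) and at -0.869 with the 7 endothelial genes (-0.917). The sustentacular list, genes of the supporting cells of the epithelium, ran between -0.04 and 0.11 in knockouts and between -0.06 and 0.10 in controls as a deviation from all mice, with knockout 3 and control 1 highest, as for Ncam2. Endothelial genes were higher in knockouts in 7 of 7, with a median of 0.12 and none past the limma threshold, and ran between -0.32 and 0.28 in knockouts and between -0.09 and -0.0032 in controls. These correlations share library, scale and tissue composition within each mouse and are given with no test.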
